A study of Rattus norvegicus with 6 samples.

Results

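The mitochondrial ribosomal proteins are the protein subunits of the ribosome that works inside mitochondria. They were taken here as the rows of the deposited count table whose gene symbol was Mrpl or Mrps followed by a number and, for some, a letter from a to c. This gave 74 of 16849 genes: 47 large-subunit proteins, 26 small-subunit proteins and Mrps36, which keeps a ribosomal name but is known as a part of the oxoglutarate dehydrogenase complex. All 74 were expressed above the filter on low counts and were tested. Transcripts were measured by RNA sequencing in RSC96 cells of wild-type genotype, a permanently dividing line derived from rat Schwann cells, the glia of peripheral nerves. The cells labelled PVDF@PDA received hypoxia with a piezoelectric material, those labelled PCL@PDA received hypoxia with a non-piezoelectric one, and the third group was Control, with 2 libraries each. Per the series' design text the hypoxia was modelled by 24 h in medium conditioned by macrophages, and the labels do not say whether Control cells were given that medium. Differences from Control are therefore differences between whole conditions, in which medium, hypoxia and material cannot be told apart.

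Mitochondria keep a small genome of their own, which in mammals encodes core subunits of the respiratory chain and of ATP synthase. The mitochondrial ribosome translates those messages with ribosomal RNAs from the mitochondrial genome and proteins from nuclear genes, which are made in the cytosol and imported. The large subunit forms peptide bonds and the small subunit reads the message. Some of the proteins have counterparts in bacterial ribosomes, and others were added in the course of mitochondrial evolution.

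The libraries held 32760123 to 35389307 counted reads, of which the members took 0.22% to 0.228%. The 2 libraries of a group carry the replicate numbers 1 and 3 and, per the labels, came from batch 1 and batch 3. Nothing in the labels says that they came from separate cultures, so the p-values measure only the spread between these libraries, which may be technical. The cell type was checked against fixed markers. The Schwann cell markers S100b, Ngfr and Gap43 lay between 0 and 0.822 CPM (counts scaled to the library's total), while Sox2 lay at 48.5 to 63.2 CPM and Cdh2 at 38.8 to 45.2 CPM, and Sox10 was not analysed here. Of 7 Schwann cell markers tested against Control, 2 fell in PVDF@PDA (28.6%, with 15.7% of all genes called). In PCL@PDA 1 rose and 1 fell (28.6%, with 20.1%). Erbb3, the neuregulin receptor, fell with both materials (log2 -0.72 in PVDF@PDA and -0.61 in PCL@PDA, adjusted p = 0.000131 and 0.000849, edgeR). With the replicate block Sox2 fell in PCL@PDA too (adjusted p = 0.0111, against 0.0554 without the block). The macrophage marker Ptprc had at most 0.0283 CPM and Cd68 at most 0.913 CPM, while Cd14 lay at 4.53 to 6.02 CPM. Coro1a lay at 1.61 to 1.97 CPM with the materials, against 0.82 and 0.881 CPM in Control. None of the 5 macrophage markers tested was called (3 in PVDF@PDA and 1 in PCL@PDA at an unadjusted p below 0.05), but Cd68 was called higher in PVDF@PDA with the replicate block (adjusted p = 0.0251, against 0.0688 without it).

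All 74 members were expressed in every library, from 105 counts for Mrpl14 in PVDF@PDA replicate 1 to 5469 counts for Mrpl45 in PCL@PDA replicate 1. Levels between genes are compared as FPKM, fragments scaled by transcript length and by the library's total, as the authors deposited them. The median member lay at 20.7 to 22.3 FPKM, against 7.54 to 8.1 FPKM for the median gene tested. The transcripts were short, with a median length of 1117 bases (527 to 3622), against 3129 bases over all genes tested. Mrps18c, a small-subunit protein with a bacterial counterpart, was the most abundant member, at 164 and 166 FPKM in PVDF@PDA, 160 and 149.9 FPKM in PCL@PDA and 166 and 149 FPKM in Control. Mrpl17, a large-subunit protein, followed at 109 and 117 FPKM in PVDF@PDA, 121 and 116 FPKM in PCL@PDA and 121 and 119 FPKM in Control. The ranges of these genes over the libraries did not overlap each other. Mrps18c was higher in both PVDF@PDA libraries than in both PCL@PDA libraries, and Mrpl17 was lower in both PVDF@PDA libraries than in both Control libraries, but neither was called.

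Mrpl45, which in mammals tethers the ribosome to the inner membrane, came next at 68.8 to 72.0 FPKM, and its groups overlapped in all 3 comparisons. The proteins named S18 are 3 relatives of unequal level: Mrps18c stood at 149 to 166 FPKM, Mrps18b at 45.3 to 50.3 FPKM and Mrps18a, which sits in the large subunit despite its name, at 31.2 to 39.4 FPKM. Their ranges did not overlap. None of the 3 was called, but Mrps18a was called lower in PCL@PDA with the length trend removed (log2 -0.29, adjusted p = 0.0371, and 0.0232 with the replicate block added), against an adjusted p of 0.0759 without that correction. At the low end stood Mrpl28 at 4.62 to 6.02 FPKM, Mrpl36 at 3.27 to 5.27 FPKM and Mrpl14 at 2.89 to 4.95 FPKM, all large-subunit proteins with bacterial counterparts. Mrps36, the member outside the ribosome, lay at 23.3 to 25.3 FPKM, and its groups overlapped in all 3 comparisons.

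**Figure D1:**
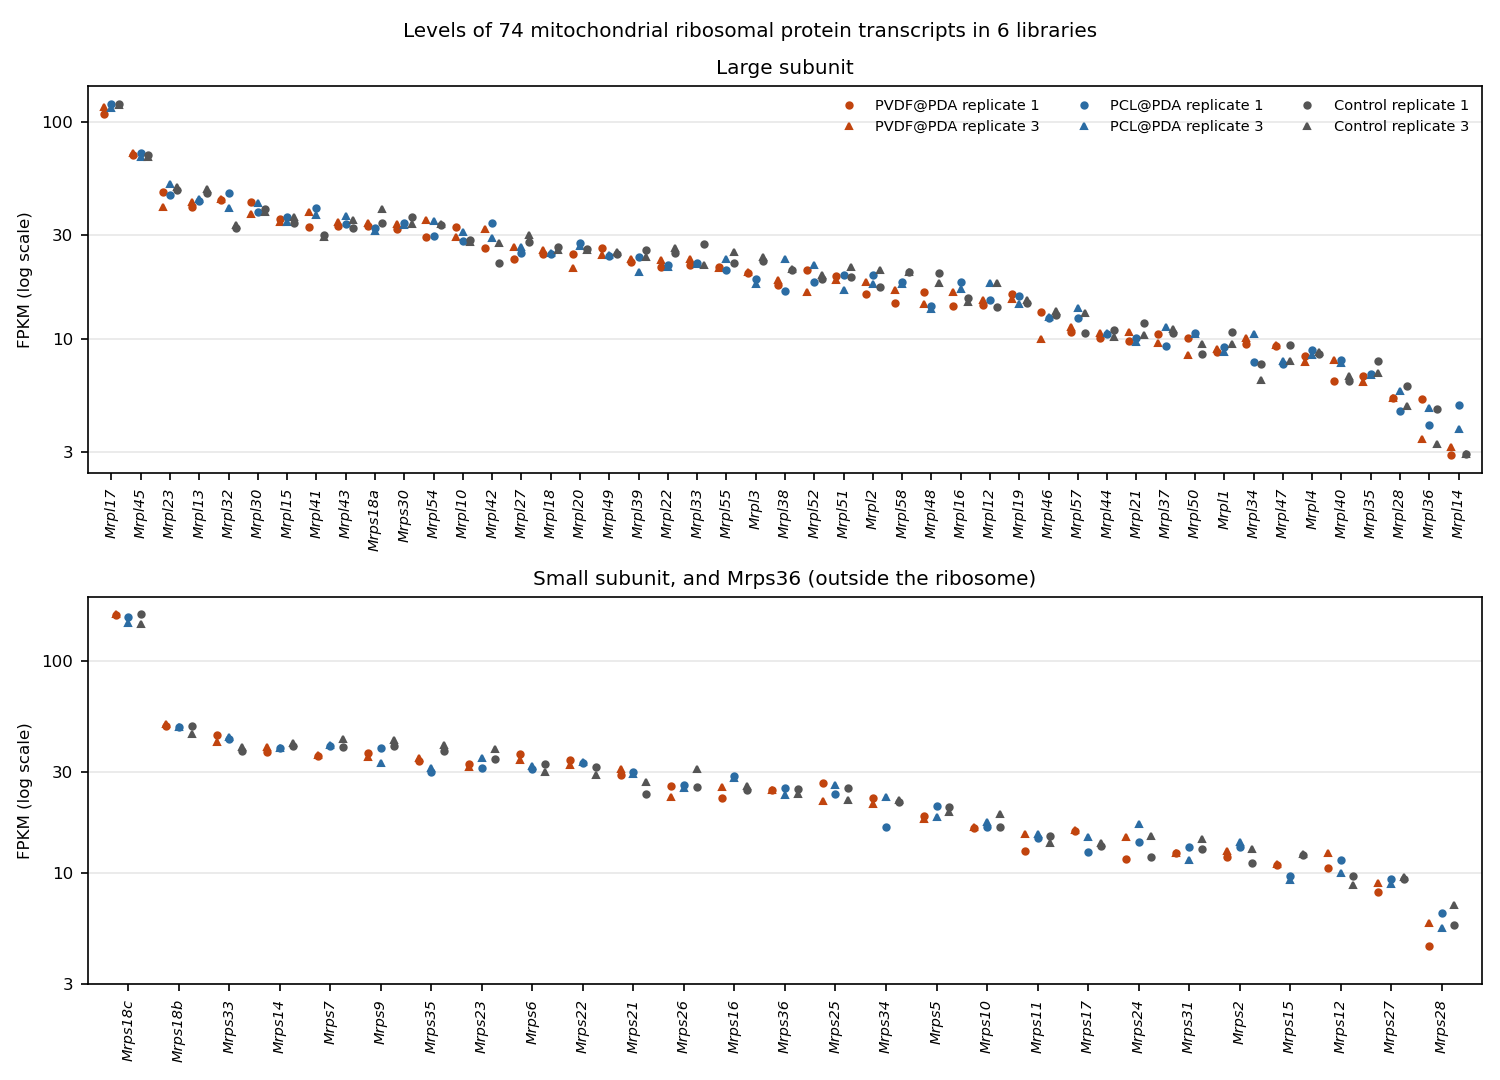
FPKM (log scale) of each member in each library, ordered by mean level, with large-subunit proteins in the upper panel and small-subunit proteins and Mrps36 in the lower one. Circles are replicate 1 and triangles replicate 3, with PVDF@PDA left, PCL@PDA in the middle and Control right for each gene. Mrps18c and Mrpl17 stand above the rest, and the 3 groups lie close together for most genes.

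Upstream sequences in the RefSeq table of rat promoters (build GRCr8) were found for 60 of the 74 members. They were searched on both strands for 4 short words known from factors that act on genes of mitochondrial function, in the 250 bases before and 50 bases after the annotated start. The word of the ETS factors, CCGGAAG, was in 20 of 60 member promoters (33.3%), against 17.8% of 10605 promoters of genes tested and 9.22% of all 27457 promoters. The word of YY1, AAGATGGC, was in 15 (25%), against 5.61% and 3.44%. The word of NRF1, GCGCATGC, was in 5 (8.33%), against 5.04% and 2.66%, and the E-box CACGTG was in 6 (10%), against 9.29% and 6.65%. A matched word is a description of the sequence and not a site shown to be bound. Sequences of 3 members are shown because their values are set side by side below: Mrpl32 was called higher than Control with both materials, Mrpl17 carried the same NRF1 word as often and was not called, and Mrpl58 was called lower with PVDF@PDA. Each ends at the base before the annotated start and is written in the direction of the gene, with matched words in capitals. They lie at chr17:55260442-55260650 on the plus strand, chr1:169575700-169575949 on the minus strand and chr10:101145092-101145341 on the plus strand.
Mrpl32: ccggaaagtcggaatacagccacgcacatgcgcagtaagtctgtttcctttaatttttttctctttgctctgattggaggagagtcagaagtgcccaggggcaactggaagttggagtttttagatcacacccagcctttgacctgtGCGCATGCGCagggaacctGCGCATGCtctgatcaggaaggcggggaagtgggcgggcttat
Mrpl17: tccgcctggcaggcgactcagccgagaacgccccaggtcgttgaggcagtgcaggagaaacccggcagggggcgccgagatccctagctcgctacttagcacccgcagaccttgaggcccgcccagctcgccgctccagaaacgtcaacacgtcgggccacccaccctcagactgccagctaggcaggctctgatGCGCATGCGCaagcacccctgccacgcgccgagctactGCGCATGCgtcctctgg
Mrpl58: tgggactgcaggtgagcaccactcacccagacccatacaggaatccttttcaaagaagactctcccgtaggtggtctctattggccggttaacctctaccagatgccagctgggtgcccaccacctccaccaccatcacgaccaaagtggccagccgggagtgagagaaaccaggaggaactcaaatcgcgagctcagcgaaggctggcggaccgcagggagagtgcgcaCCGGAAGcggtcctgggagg

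The Mrpl32 sequence is the 209 bases between Mrpl32 and the divergent gene Psma2, whose first 41 bases in the window were left out. It holds 3 matches of the NRF1 word, a pair of which overlap in the first run of capitals because the word reads partly the same on both strands. The Mrpl17 sequence also holds 3 such matches, a pair of them overlapping, and the Mrpl58 sequence holds 1 ETS word. Mrpl32 and Mrpl17 shared the NRF1 word but not the call, as the values below give. The 41 bases left out for Mrpl32 hold a YY1 word, and the Mrpl17 promoter has no YY1 word. Whether any of these words bears on the calls was not tested.

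Summed over the members, expression was lower with both materials than in Control. The sum of CPM, scaled between libraries by TMM (trimmed mean of M-values) like all CPM of single members below, was 2189 and 2198 in PVDF@PDA, 2229 and 2186 in PCL@PDA and 2302 and 2318 in Control. All 4 libraries with a material lay below both Control libraries, while the 2 materials overlapped. The means were 2194 ± 6.89 in PVDF@PDA, 2207 ± 30.7 in PCL@PDA and 2310 ± 11.8 in Control (SD, n = 2 each), so the sum stood at 0.95 of Control with PVDF@PDA and at 0.956 of Control with PCL@PDA. With library totals alone in place of TMM the highest library with a material was at 2236 CPM and the lowest Control library at 2254 CPM, and the ratios to Control were 0.974 and 0.984. In these bulk samples, fewer cells of one kind and less RNA per cell cannot be told apart. Both subunits were lower with either material than in Control. Large-subunit transcripts summed to 1343 ± 4.59 CPM in PVDF@PDA, 1362 ± 15.6 CPM in PCL@PDA and 1423 ± 6.48 CPM in Control. Small-subunit transcripts summed to 828.5 ± 2.39 CPM in PVDF@PDA, 822.7 ± 13.6 CPM in PCL@PDA and 864.3 ± 6.19 CPM in Control (SD, n = 2 each). The ratio of large-subunit to small-subunit counts stayed between 1.62 and 1.66 over the 6 libraries. No test was made on these sums. The 7 Schwann cell markers tested summed to 120.3 and 118 CPM in PVDF@PDA, 126 and 114 CPM in PCL@PDA and 131 and 134 CPM in Control, so this sum too was lower with both materials. Single markers differed: 4 of the 7 had a log2 difference above 0 in PVDF@PDA (median 0.022) and 1 of the 7 in PCL@PDA (median -0.23). On the same scale of library totals, the 5 macrophage markers tested summed to 8.06 and 8.19 CPM in PVDF@PDA, 7.89 and 7.23 CPM in PCL@PDA and 7.78 and 7.49 CPM in Control. The part of such markers in the members' sum was not tested.

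**Figure D2:**
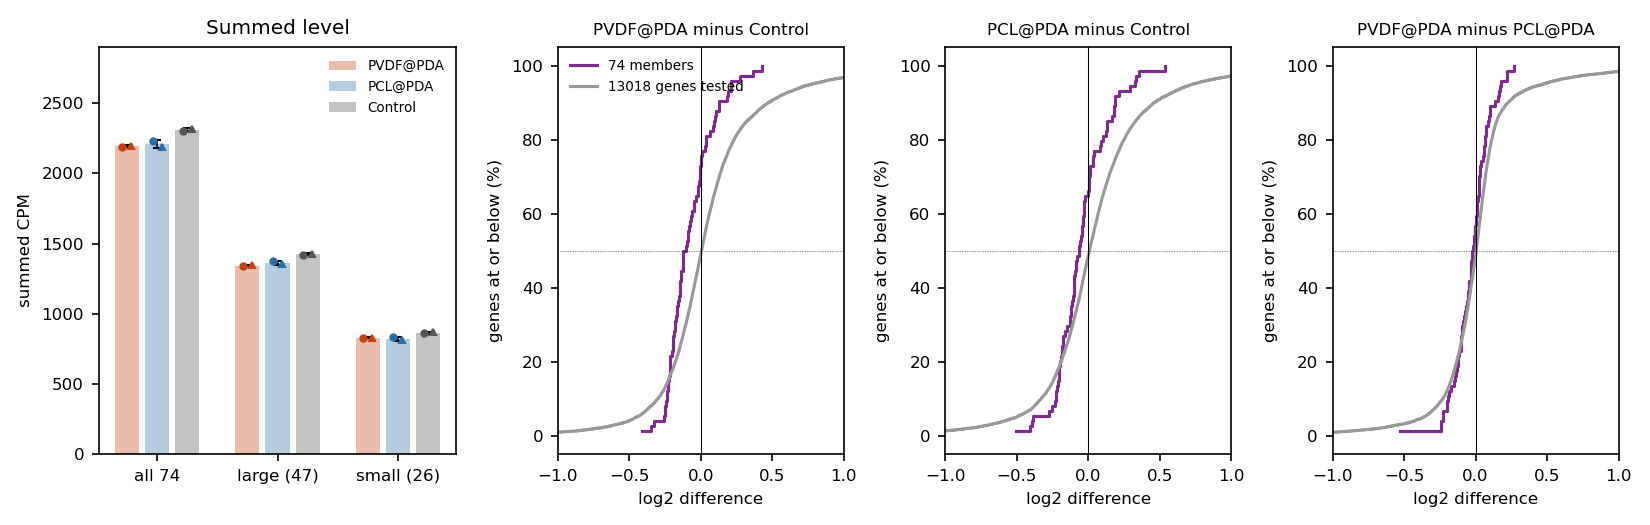
Left: summed TMM-scaled CPM of all 74 members, the 47 large-subunit and the 26 small-subunit proteins (bars, group mean; error bars, SD, n = 2; circles, replicate 1; triangles, replicate 3). Right: share of genes (%) at or below each log2 difference, for the members and for all genes tested, in each comparison. The members' curves lie left of the curves of all genes in the middle of both comparisons with Control and are steeper, and the curves nearly coincide between the materials.

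Gene by gene, the members lay slightly below Control with most of them inside narrow bounds. The median log2 difference was -0.11 in PVDF@PDA and -0.064 in PCL@PDA, against 0.0057 and 0.0089 for all genes tested. In PVDF@PDA 54 of 74 members (73%) had a log2 difference below 0, against 48.8% of all genes, and in PCL@PDA 49 of 74 (66.2%), against 48.5%. With library totals alone the members' medians were -0.076 and -0.022, and those of all genes 0.042 and 0.052. The 95% interval lay within 0.5 log2 of 0 for 64 members in PVDF@PDA and for 60 in PCL@PDA. Of all 13018 genes tested it did so for 7989 and 7874. The spread behind these intervals was drawn toward that of other genes, so their width does not come from the libraries compared alone. Both PVDF@PDA libraries were below both Control libraries for 31 members (41.9%, with 29.2% of all genes) and above them for 9 (12.2%, with 29.4%). Both PCL@PDA libraries were below both Control libraries for 26 members (35.1%, with 27.8% of all genes) and above them for 12 (16.2%, with 28.3%). The groups overlapped for 34 and for 36 members. The 2 comparisons share their Control libraries.

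Few members passed the test of the single gene. By edgeR's quasi-likelihood test, with p-values adjusted over all 13018 genes and a threshold of 0.05, 4 members were called in PVDF@PDA against Control (5.41%), with 15.7% of all genes called. Of these, 1 rose and 3 fell, with 6.79% of all genes called higher and 8.9% lower. For PCL@PDA 7 members were called against Control (9.46%), with 20.1% of all genes called. Of these, 2 rose and 5 fell, with 8.77% of all genes called higher and 11.3% lower. The share of members called was below that of all genes in both comparisons, a difference that was not tested. With library totals alone all genes split into 1164 higher and 879 lower in PVDF@PDA and into 1482 higher and 1070 lower in PCL@PDA, against 884 and 1158, and 1142 and 1474, with TMM. The members then split into 1 higher and 2 lower in PVDF@PDA and into 2 higher and 4 lower in PCL@PDA. With the batch as a replicate block, 7 members were called in PVDF@PDA, the added ones being Mrpl3 (adjusted p = 0.0412), Mrps7 (0.0448) and Mrps9 (0.028), and in PCL@PDA the block added Mrpl42 (0.0319). The share of all genes called with the block was not set beside these counts. The count of members called in PVDF@PDA changed when single libraries were left out, as did that of all genes, given in the last section. It was 0 when Control replicate 1 was left out (13 at an unadjusted p below 0.05), 2 when Control replicate 3 or PVDF@PDA replicate 1 was left out and 1 when PVDF@PDA replicate 3 was left out. It was 9 and 10 when PCL@PDA replicate 1 and replicate 3 were left out. The count in PCL@PDA was 4 when Control replicate 1 was left out.

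**Figure D3:**
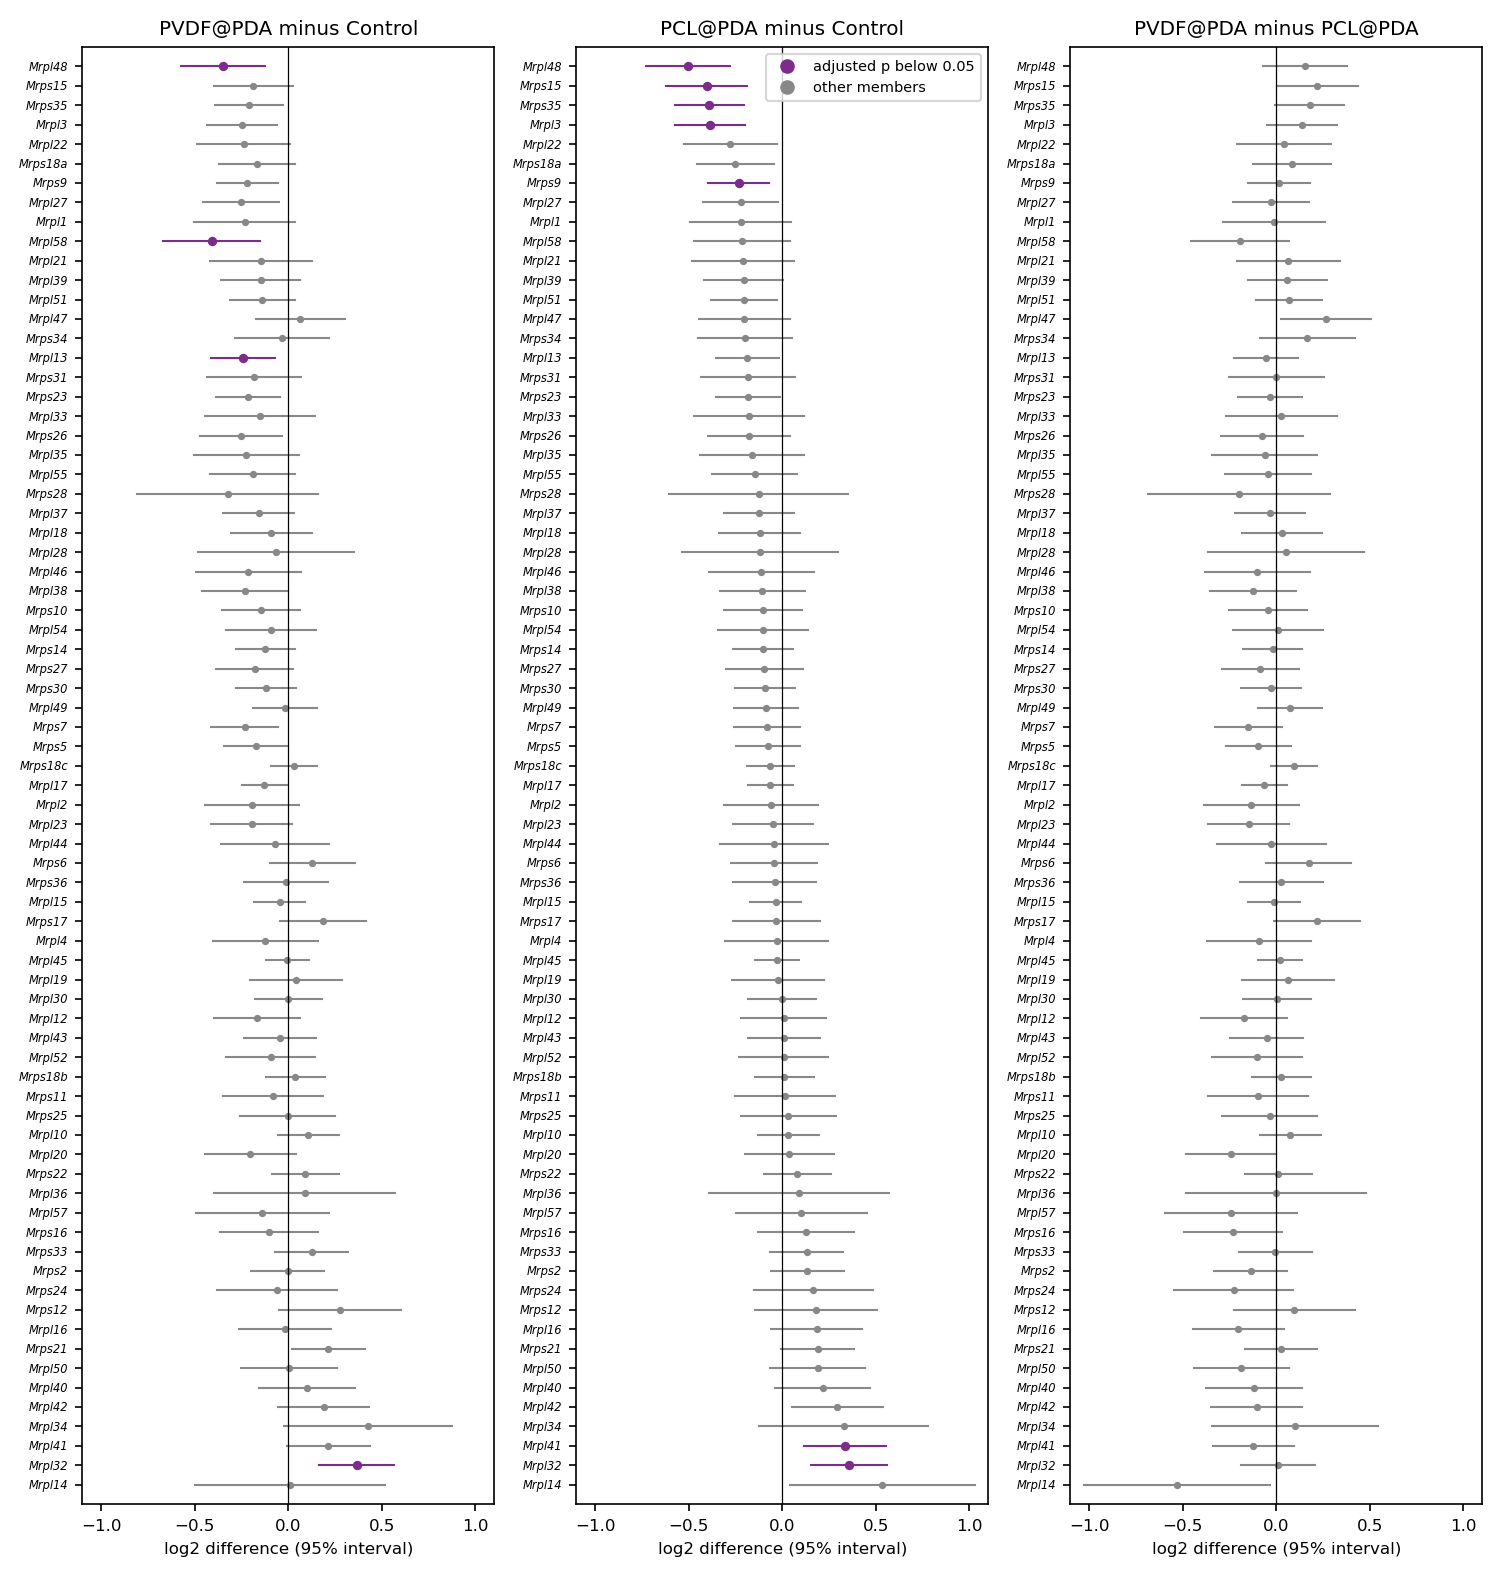
Log2 difference of each member with its 95% interval in 3 comparisons, in the order of the PCL@PDA minus Control values; purple marks an adjusted p below 0.05 (edgeR). In PVDF@PDA 4 members and in PCL@PDA 7 members are marked against Control, and none is marked between the materials.

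Mrpl32 and Mrpl41 were the members called higher. Mrpl32 is a large-subunit protein that is cut to its mature form by the m-AAA protease inside mitochondria before it joins the ribosome. It had 33.1 and 33.3 CPM in PVDF@PDA, 36.0 and 30.04 CPM in PCL@PDA and 25.5 and 26.1 CPM in Control. All 4 libraries with a material lay above both Control libraries. The log2 difference from Control was 0.37 ± 0.10 in PVDF@PDA (SE, adjusted p = 0.00752, edgeR) and 0.36 ± 0.10 in PCL@PDA (adjusted p = 0.00746). For PVDF@PDA the call was lost without Control replicate 1 (adjusted p = 0.0725) and without PVDF@PDA replicate 3 (0.063), within a range of 0.00127 to 0.0725 over 16 alternatives. For PCL@PDA it was lost without Control replicate 1 (0.0723) and without PCL@PDA replicate 1, where the log2 difference was 0.22 (0.16), within a range of 0.000539 to 0.16. Psma2, a proteasome subunit read from the other side of the shared upstream region, averaged 106 ± 1.88 CPM in PVDF@PDA, 111 ± 1.68 CPM in PCL@PDA and 107.5 ± 1.45 CPM in Control (SD, n = 2 each). It was called in neither comparison with Control (adjusted p = 0.839 and 0.629, edgeR). Mrpl17, with the same NRF1 word upstream, had log2 differences of -0.13 ± 0.060 in PVDF@PDA (SE, adjusted p = 0.15) and -0.063 ± 0.060 in PCL@PDA (adjusted p = 0.522), and it was called lower in PVDF@PDA only when PCL@PDA replicate 3 was left out (adjusted p = 0.0475).

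Mrpl41, a large-subunit protein without a bacterial counterpart, had 22.9 and 26.8 CPM in PVDF@PDA, 28.2 and 25.8 CPM in PCL@PDA and 21.7 and 21.1 CPM in Control. Its lowest library with a material, PVDF@PDA replicate 1, was close to the higher Control library. The log2 difference from Control was 0.34 ± 0.11 in PCL@PDA (SE, adjusted p = 0.0212, edgeR) and 0.21 ± 0.11 in PVDF@PDA (adjusted p = 0.192). The PCL@PDA call was lost without Control replicate 1 (0.0866), Control replicate 3 (0.132) or PCL@PDA replicate 1 (0.109) and with the length trend removed (0.0521), within a range of 0.0102 to 0.132. Pnpla7, a lysophospholipase gene that diverges from Mrpl41, was also called higher in PCL@PDA, at 24.4 ± 2.17 CPM, against 16.7 ± 0.639 CPM in Control (SD, n = 2 each; log2 0.55 ± 0.12 SE, adjusted p = 0.000341). In PVDF@PDA Pnpla7 averaged 20.8 ± 0.139 CPM and was not called (adjusted p = 0.0514). The annotated spans of the 2 genes do not overlap.

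**Figure D4:**
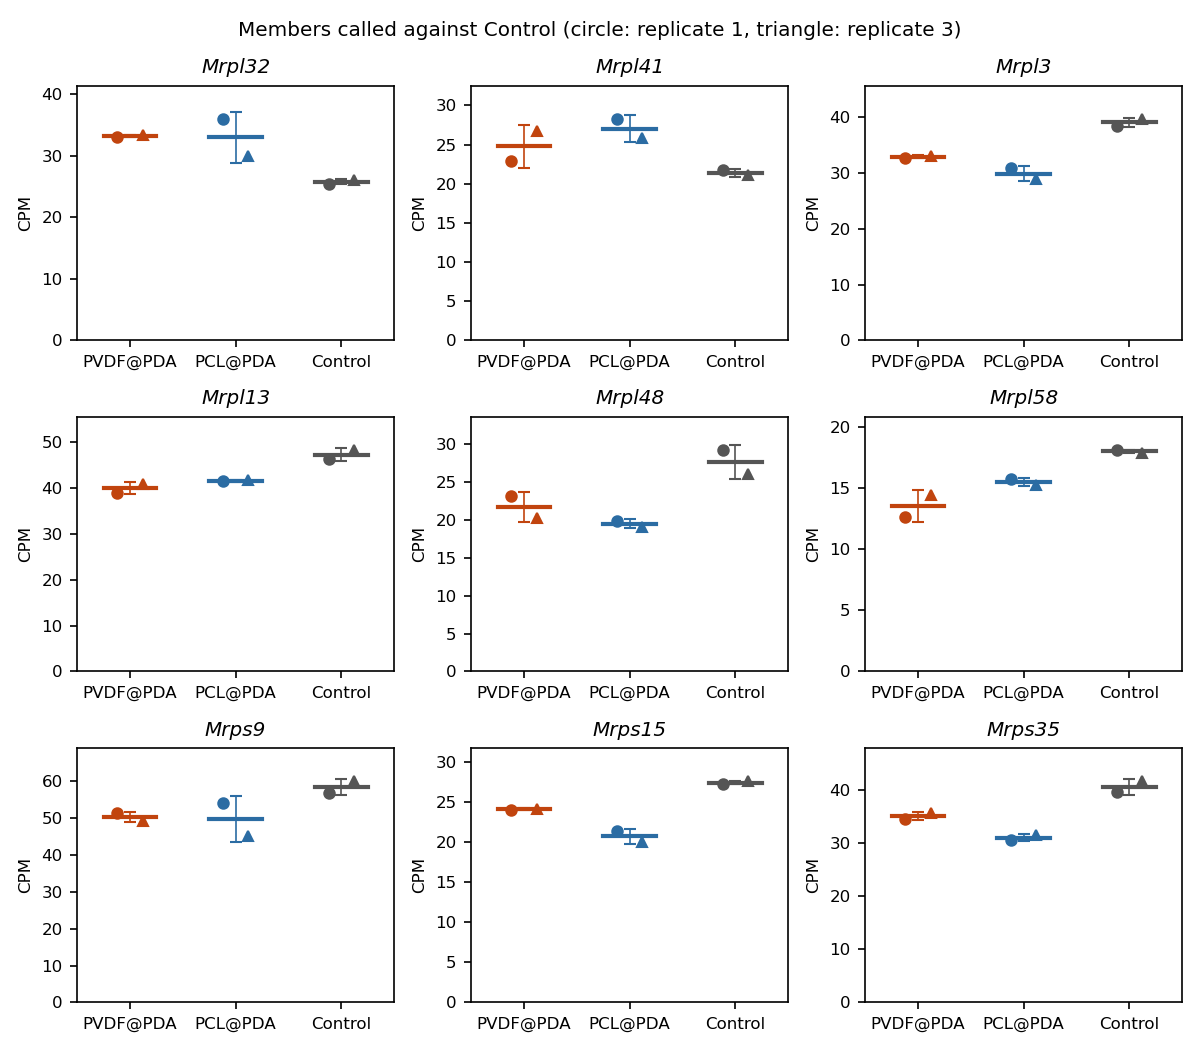
TMM-scaled CPM in each library for the 9 members called against Control in at least 1 comparison (circles, replicate 1; triangles, replicate 3; thick lines, group mean; error bars, SD, n = 2; axes start at 0). Mrpl32 and Mrpl41 lie higher with both materials than in Control, and the other 7 lie lower.

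Of the large-subunit proteins, Mrpl48, Mrpl3, Mrpl13 and Mrpl58 were called lower in at least 1 comparison. Mrpl48, which has no bacterial counterpart, had 23.1 and 20.3 CPM in PVDF@PDA, 19.9 and 19.1 CPM in PCL@PDA and 29.2 and 26.1 CPM in Control. It was called lower with both materials, and no library with a material reached the Control range. The log2 difference was -0.35 ± 0.11 in PVDF@PDA (SE, adjusted p = 0.0228, edgeR) and -0.50 ± 0.11 in PCL@PDA (adjusted p = 0.000625). The PCL@PDA call held in all 16 alternatives (adjusted p 4.73e-05 to 0.04). The PVDF@PDA call was lost without Control replicate 1 (0.269), without PVDF@PDA replicate 3 (0.302) and with limma on log2(FPKM + 0.1) (0.0502), within a range of 0.00607 to 0.302. Rab6a, a Golgi transport gene whose annotated span overlaps that of Mrpl48, was also lower in PCL@PDA, at 347.5 ± 22.5 CPM, against 403 ± 14.5 CPM in Control (log2 -0.21 ± 0.053 SE, adjusted p = 0.00244, edgeR). In PVDF@PDA Rab6a averaged 377 ± 1.35 CPM and was not called (adjusted p = 0.228).

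Mrpl3, a core protein with a bacterial counterpart, had 32.7 and 33.1 CPM in PVDF@PDA, 30.8 and 29.0 CPM in PCL@PDA and 38.5 and 39.6 CPM in Control. Both materials lay below Control without overlap. The log2 difference was -0.39 ± 0.093 in PCL@PDA (SE, adjusted p = 0.00165, edgeR), a call that held in all 16 alternatives (0.000276 to 0.0264), and -0.25 ± 0.093 in PVDF@PDA (adjusted p = 0.059, and 0.0412 with the replicate block, within a range of 0.0219 to 0.257). Mrpl13, also with a bacterial counterpart, had 39.0 and 41.0 CPM in PVDF@PDA, 41.5 and 41.7 CPM in PCL@PDA and 46.4 and 48.3 CPM in Control. Again no library with a material reached the Control range. Its log2 difference was -0.24 ± 0.085 in PVDF@PDA (adjusted p = 0.0408) and -0.19 ± 0.084 in PCL@PDA (adjusted p = 0.114). The PVDF@PDA call was lost when any 1 of the 4 libraries compared was left out (0.268 for PVDF@PDA replicate 1, 0.115 for PVDF@PDA replicate 3, 0.114 for Control replicate 1, 0.238 for Control replicate 3) and with library totals alone (0.0921), within a range of 0.0125 to 0.268.

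Mrpl58, also known as ICT1, is a peptidyl-tRNA hydrolase built into the large subunit that in human cells frees stalled ribosomes. It had 12.6 and 14.5 CPM in PVDF@PDA, 15.7 and 15.2 CPM in PCL@PDA and 18.1 and 17.9 CPM in Control. The PVDF@PDA libraries were the lowest and the PCL@PDA libraries lay between them and Control. The log2 difference was -0.41 ± 0.13 in PVDF@PDA (SE, adjusted p = 0.0228, edgeR) and -0.22 ± 0.13 in PCL@PDA (adjusted p = 0.262). The difference between the materials was -0.19 ± 0.13 (adjusted p = 0.693), so a PVDF@PDA level unlike that of PCL@PDA was not shown. The PVDF@PDA call was lost without PVDF@PDA replicate 1 (0.264), Control replicate 1 (0.118) or Control replicate 3 (0.0918), within a range of 0.00867 to 0.264.

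In the small subunit 3 proteins were called lower in PCL@PDA and none in PVDF@PDA. Mrps35, which has no bacterial counterpart, had 34.4 and 35.6 CPM in PVDF@PDA, 30.5 and 31.4 CPM in PCL@PDA and 39.5 and 41.6 CPM in Control. The 3 groups did not overlap, with PCL@PDA lowest. The log2 difference was -0.39 ± 0.091 in PCL@PDA (SE, adjusted p = 0.00123, edgeR) and -0.21 ± 0.091 in PVDF@PDA (adjusted p = 0.107). Mrps15, with a bacterial counterpart, had 24.1 and 24.2 CPM in PVDF@PDA, 21.4 and 20.1 CPM in PCL@PDA and 27.3 and 27.6 CPM in Control. It showed the same order of groups without overlap. The log2 difference was -0.40 ± 0.11 in PCL@PDA (adjusted p = 0.00427) and -0.19 ± 0.11 in PVDF@PDA (adjusted p = 0.252). The PCL@PDA calls of both genes held in all 16 alternatives (8.29e-05 to 0.0301 for Mrps35, 0.00111 to 0.0386 for Mrps15).

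Mrps9, with a bacterial counterpart, had 51.3 and 49.3 CPM in PVDF@PDA, 54.2 and 45.3 CPM in PCL@PDA and 56.9 and 60.1 CPM in Control. The 2 PCL@PDA libraries stood on either side of the PVDF@PDA pair and below Control. The log2 difference was -0.23 ± 0.082 in PCL@PDA (SE, adjusted p = 0.0353, edgeR) and -0.22 ± 0.082 in PVDF@PDA (adjusted p = 0.0613, and 0.028 with the replicate block, within a range of 0.0123 to 0.308). Within batch 1 the PCL@PDA difference was -0.071 and within batch 3 it was -0.41. The call was lost without PCL@PDA replicate 3, where the log2 difference was -0.12 (adjusted p = 0.433), without Control replicate 1 (0.0748) or Control replicate 3 (0.223), with DESeq2 (0.0682), with library totals alone (0.0968) and with limma on FPKM (0.126 and 0.127), within a range of 0.000465 to 0.433. Mrps9 thus rested on 1 PCL@PDA library more than Mrps35 and Mrps15 did.

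Between the materials no member was called, with 0.0615% of all genes (8 of 13018) called. At an unadjusted p below 0.05 there were 3 members by edgeR and 1 by DESeq2, which called none either. Over all 13018 genes there were 1105 by edgeR. The median log2 difference of the members was -0.023, against 0.0045 for all genes. A 95% interval within 0.5 log2 of 0 was found for 68 of 74 members and for 8999 of all 13018 genes. Both PVDF@PDA libraries were above both PCL@PDA libraries for 10 members (13.5%, with 19.2% of all genes) and below them for 13 (17.6%, with 18.9%). The 4 members with the smallest p were Mrpl47, Mrpl14, Mrps15 and Mrpl20. Mrpl47, a large-subunit protein with a bacterial counterpart, had 20.9 and 21.0 CPM in PVDF@PDA, against 17.2 and 17.6 CPM in PCL@PDA. The pairs did not overlap, and the log2 difference was 0.27 with a 95% interval of 0.026 to 0.51 (adjusted p = 0.531, edgeR).

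Mrpl14, the least abundant member, had 3.19 and 3.48 CPM in PVDF@PDA, against 5.47 and 4.15 CPM in PCL@PDA. Control, at 3.33 and 3.3 CPM, lay within the PVDF@PDA range, and PCL@PDA replicate 1 stood highest. Against Control, edgeR did not call Mrpl14 in PCL@PDA. Limma called it higher there on log2(FPKM + 1) (log2 0.44, adjusted p = 0.0342) and on log2(FPKM + 0.1) (log2 0.55, adjusted p = 0.0346). The log2 difference between the materials was -0.53 with a 95% interval of -1.03 to -0.031 (adjusted p = 0.54, edgeR), the widest interval of the 4. Mrpl20, a large-subunit protein with a bacterial counterpart, had 18.5 and 15.9 CPM in PVDF@PDA, against 20.9 and 19.8 CPM in PCL@PDA. The PVDF@PDA pair was lower without overlap, with a log2 difference of -0.24 and an interval of -0.48 to 0.0012 (adjusted p = 0.592). For Mrps15 the difference was 0.22 with an interval of 0.0026 to 0.43 (adjusted p = 0.579). A miss at this threshold does not show equal levels. The intervals use a spread fitted over all 6 libraries and drawn toward that of other genes. The median prior degrees of freedom taken from other genes were 50.3, against 3 residual ones. The widths therefore do not come from the 2 libraries of each material alone.

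Calls fell in both subunits in PCL@PDA but only in the large subunit in PVDF@PDA. In both comparisons they included proteins with and without bacterial counterparts. The shares called in PVDF@PDA and PCL@PDA were 8.51% and 8.51% for the large subunit and 0% and 11.5% for the small subunit. They were 4.65% and 9.3% with bacterial counterparts and 6.67% and 10% without. All of these lay below the shares of all genes, 15.7% and 20.1%. Of the 47 large-subunit proteins 1 rose and 3 fell in PVDF@PDA, with a median log2 difference of -0.12, and 2 rose and 2 fell in PCL@PDA, with a median of -0.063. Of the 26 small-subunit proteins none was called in PVDF@PDA, with a median of -0.093, and 3 fell in PCL@PDA, with a median of -0.070. Among the 43 proteins with bacterial counterparts 1 rose and 1 fell in PVDF@PDA and 1 rose and 3 fell in PCL@PDA, with medians of -0.12 and -0.059. Among the 30 proteins without such counterparts none rose and 2 fell in PVDF@PDA and 1 rose and 2 fell in PCL@PDA, with medians of -0.11 and -0.094. All these medians lay below 0, and the difference between classes was not tested.

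The genes around the mitochondrial ribosome were followed in lists of known roles. Against Control, 3671 of all 13018 genes had an unadjusted p below 0.05 in PVDF@PDA and 4036 in PCL@PDA (edgeR). Of all genes, 15.7% were called in PVDF@PDA and 20.1% in PCL@PDA. In the same order, the shares were 0% and 20% for ribosomal proteins with other symbols and 3.7% and 0% for assembly factors. They were 0% and 0% for translation factors, 5% and 5% for tRNA charging enzymes and 4.35% and 8.7% for genes of DNA and RNA upkeep. Of 5 ribosomal proteins with other symbols, none was called in PVDF@PDA (2 at an unadjusted p below 0.05), and Ptcd3 fell in PCL@PDA, to 86.7 ± 3.27 CPM, against 102 ± 9.33 CPM in Control (SD, n = 2 each; log2 -0.23 ± 0.067 SE, adjusted p = 0.00926, edgeR). With the replicate block Aurkaip1 was called lower there too (adjusted p = 0.0378, against 0.0517 without the block). The table also writes 3 ribosomal proteins in lower case, outside the rule of choice. Of these mrpl9 fell with both materials (log2 -0.28, adjusted p = 0.026, in PVDF@PDA and -0.29, adjusted p = 0.0157, in PCL@PDA), and mrpl11 (in PVDF@PDA adjusted p = 0.0654, and 0.0331 with the replicate block) and mrpl24 were not called. Of 27 assembly factors, 1 fell in PVDF@PDA (Mrm1, an rRNA methyltransferase, log2 -0.36 ± 0.12 SE, adjusted p = 0.0307) and none was called in PCL@PDA (2 at an unadjusted p below 0.05, and 1, Gtpbp10, with the replicate block at an adjusted p of 0.0473). None of 14 translation factors was called with either material (2 at an unadjusted p below 0.05 in each). With the replicate block Tufm was called higher (adjusted p = 0.0489) and Guf1 lower (0.0314) in PCL@PDA. Of 20 enzymes that charge mitochondrial tRNAs, Tars2 fell in PVDF@PDA (log2 -0.31 ± 0.10, adjusted p = 0.0347) and Lars2 fell in PCL@PDA (log2 -0.30 ± 0.11, adjusted p = 0.042). Of 23 genes of mitochondrial DNA and RNA upkeep, Mtpap, the poly(A) polymerase, fell in PVDF@PDA (log2 -0.30 ± 0.080, adjusted p = 0.00526) and in PCL@PDA (log2 -0.29 ± 0.080, adjusted p = 0.0056), and Polg, the DNA polymerase, rose in PCL@PDA (log2 0.31 ± 0.087, adjusted p = 0.00736).

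The mitochondrial ribosome makes partners of nuclear-encoded respiratory subunits. Of 76 nuclear genes for the respiratory chain and ATP synthase, 5 rose and 2 fell in PVDF@PDA, and 12 rose and 2 fell in PCL@PDA, with medians of 0.0081 and 0.062. The shares called in both directions together, 9.21% in PVDF@PDA and 18.4% in PCL@PDA, were not above those of all genes (15.7% and 20.1%). By direction, 6.79% of all genes were called higher and 8.9% lower in PVDF@PDA, and 8.77% and 11.3% in PCL@PDA. Under TMM scaling the calls of this list thus leaned higher, and those of all genes leaned lower. Under library totals alone the calls of all genes leaned higher, as given above. This list was not counted under that scaling, so the contrast holds for TMM only. In PCL@PDA 31.6% of the list had a log2 difference below 0, against 48.5% of all genes, and in PVDF@PDA 47.4%, against 48.8%. Uqcrh, a hinge subunit of complex III, rose to 94.1 ± 3.95 CPM in PVDF@PDA and 82.7 ± 4.67 CPM in PCL@PDA, against 60.4 ± 5.09 CPM in Control (SD, n = 2 each; log2 0.64 and 0.45, adjusted p = 8.26e-10 and 2.6e-06, edgeR). Ndufb10, a subunit of complex I, rose to 67.1 ± 2.4 CPM in PVDF@PDA and 67.1 ± 1.8 CPM in PCL@PDA, against 45.1 ± 0.707 CPM in Control (log2 0.58 and 0.57, adjusted p = 6.53e-08 and 4.59e-08). Of 73 cytosolic ribosomal proteins 1 rose and 7 fell in PVDF@PDA (11%, with 15.7% of all genes called). In PCL@PDA 5 of them rose and 3 fell (11%, with 20.1%). Their medians were -0.029 and -0.017. With the replicate block 2 of them rose and 13 fell in PVDF@PDA, and 5 rose and 7 fell in PCL@PDA. The shares of all genes given here come from the fit without the block. They are therefore no background for calls made with the block, in this list or the others. Rpl3, the cytosolic counterpart of Mrpl3, fell in PVDF@PDA (log2 -0.21 ± 0.047 SE, adjusted p = 0.000734) and in PCL@PDA (log2 -0.14 ± 0.047, adjusted p = 0.0223). The members' medians, -0.11 and -0.064, were the lowest of these lists in both comparisons with Control, apart from the 3 genes in lower case; no difference between lists was tested. Between the materials none of these genes was called. At an unadjusted p below 0.05 (edgeR) there were 14 of 73 cytosolic ribosomal and 15 of 76 respiratory chain genes, against 1105 of all 13018 genes. The replicate block called 5 cytosolic ribosomal and 2 respiratory chain genes lower in PVDF@PDA than in PCL@PDA. Its count over all genes between the materials is given in the last section.

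**Figure D5:**
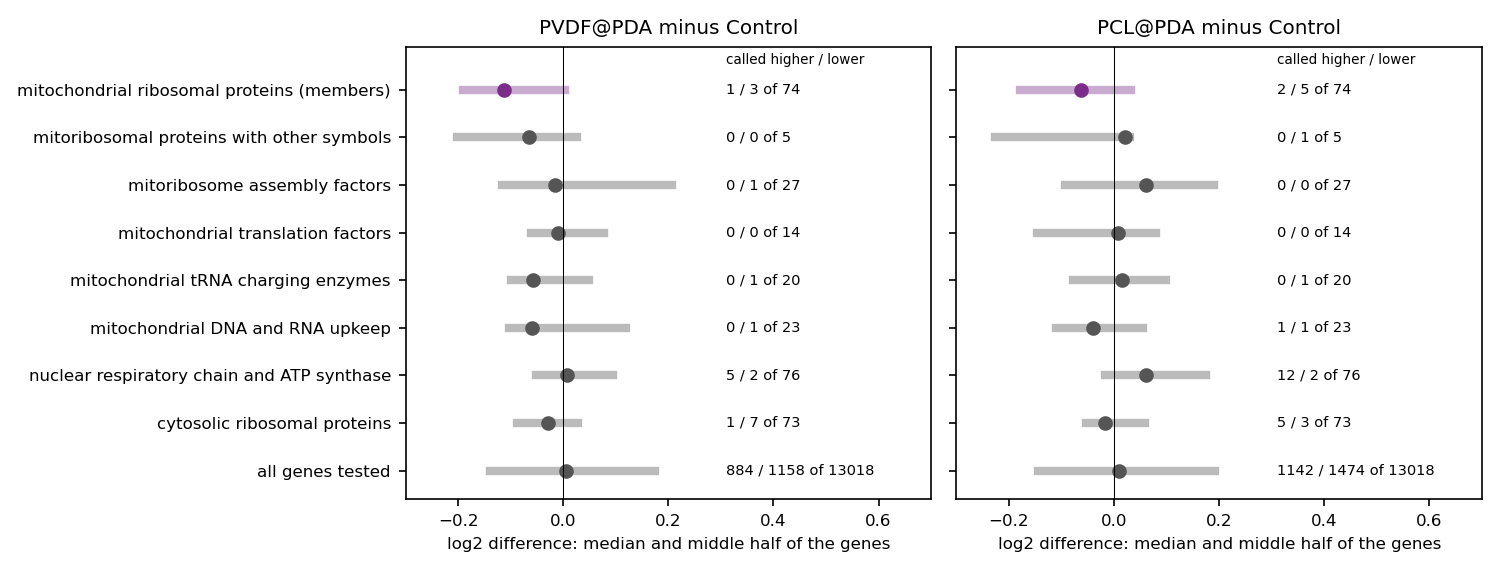
Median log2 difference (points) and interquartile range of the genes (bars) for the members, 7 lists of related genes and all genes tested, in each material against Control; the figures at the right give genes called higher and lower of those tested. The members' median is -0.11 in PVDF@PDA and -0.064 in PCL@PDA, and that of the respiratory chain genes is 0.0081 and 0.062.

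Of 9 regulators of mitochondrial biogenesis, 1 was called in PVDF@PDA (11.1%, with 15.7% of all genes) and 2 in PCL@PDA (22.2%, with 20.1%). Ppargc1a (PGC-1alpha), a coactivator of such genes, had 4.0 and 3.95 CPM of the library total in PVDF@PDA, 2.87 and 3.42 CPM in PCL@PDA and 0.998 and 1.02 CPM in Control. It rose with both materials, by a log2 difference of 1.94 ± 0.32 in PVDF@PDA (SE, adjusted p = 7.09e-06, edgeR) and 1.60 ± 0.32 in PCL@PDA (adjusted p = 0.000163). Gabpa, an ETS factor, fell in PCL@PDA, to 177 ± 11.4 CPM, against 201 ± 10.1 CPM in Control (log2 -0.18 ± 0.058 SE, adjusted p = 0.0226), and was not called in PVDF@PDA. Nrf1, whose word stands upstream of Mrpl32 and Mrpl17, averaged 51.5 ± 4.29 CPM in PVDF@PDA, 50.6 ± 3.44 CPM in PCL@PDA and 58.4 ± 4.12 CPM in Control (adjusted p = 0.131 in PVDF@PDA and 0.066 in PCL@PDA, the second 0.0358 with the replicate block). Yy1 (log2 -0.17 and -0.020), Gabpb1 (-0.029 and -0.14), Esrra (-0.12 and 0.10), Pprc1 (0.014 and 0.057), Myc (0.043 and 0.13, the second with an adjusted p of 0.0876, and 0.0389 with the replicate block) and Ppargc1b (1.4 and 0.44, at 0.852 ± 0.213 CPM in PVDF@PDA, 0.437 ± 0.208 CPM in PCL@PDA and 0.317 ± 0.363 CPM in Control) were not called. Whether any of these factors bears on the members was not tested.

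Some member counts may include reads of other loci. In the GRCr8 annotation 24 of the 74 members had an annotated copy or pseudogene, among them Mrpl32 and Mrpl41 of the 9 called, and 19 overlapped another gene. How the authors' counting treated such reads is not stated, so values of these members are uncertain to that extent. Transcript length did not order the members' differences closely: across the 74 genes the Spearman correlation of length with the log2 difference was -0.090 in PVDF@PDA and -0.196 in PCL@PDA against Control, a description across genes that share the same libraries.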

How the data were processed

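RNA was isolated from RSC96 cells with a column kit and DNase digestion, per the labels' protocols. The authors deposited raw read counts per gene for all 6 libraries and FPKM values scaled by length and library total. The submitters' processing notes name DESeq2 1.4.5 and the assembly mRatBN7.2; the aligner, counter and counting strand were not given in the sources used here. Grouping followed the titles, because the description of the PCL@PDA samples carries the name of the other material. The counts went into edgeR 4.0.16 under R 4.3.3, with TMM, filterByExpr (13018 genes kept) and a robust quasi-likelihood fit of 3 group means over 6 libraries. The fit was also run on simulated counts that had the same spread for every gene and no batch. Real spread differs between genes, so nothing about the members is concluded from that run. Each comparison used the quasi-likelihood F test with Benjamini-Hochberg adjustment over all genes tested. The biological coefficient of variation was 6.47%, and 3 counts corresponded to 0.0848 to 0.0916 CPM, a floor for counting error only. Alternatives were RLE size factors, library totals alone, no filter, DESeq2 1.42.0, the batch as a replicate block, only the libraries compared, each library left out, a length correction, and limma 3.58.1 on log2(FPKM + 1) and log2(FPKM + 0.1) for genes with a mean FPKM of at least 1. The labels pair the libraries by batch. Across all genes tested, same-batch deviations correlated at -0.02 between the materials, at 0.04 for PVDF@PDA and Control, and at 0.13 for PCL@PDA and Control. Across the 74 members the correlations were -0.226, 0.29 and -0.094 in the same order. Members were named if called against Control, among the 4 smallest p between the materials, among the 3 highest or lowest by FPKM, or an S18 relative or untested, with up to 3 genes per list and every biogenesis regulator. Genes named for a neighbouring locus or for a call gained with the replicate block, and the cell type markers singled out, were chosen after their values were seen. Members and lists were chosen with earlier results of these data known.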

Additional observations from a re-analysis of the deposited data

How the results depend on the processing

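No called difference of a named member reversed its direction, and the members' median stayed below 0 in both comparisons with Control under all 16 alternatives. When each library was left out in turn, the members called ranged from 0 (without Control replicate 1) to 10 in PVDF@PDA and from 4 (without Control replicate 1) to 9 in PCL@PDA. All genes called then ranged from 1031 (without PVDF@PDA replicate 3) to 2869 in PVDF@PDA, from 1346 (without Control replicate 1) to 3173 in PCL@PDA, and from 0 (without PVDF@PDA replicate 3, 722 at an unadjusted p below 0.05) to 827 (without PCL@PDA replicate 1) between the materials, by edgeR. Members called in PVDF@PDA were 7 with the replicate block and 9 with only the 4 libraries compared. In PCL@PDA they were 11 with the length trend removed and the replicate block. All genes called between the materials were 5 with library totals alone, 17 with no filter, 59 with the replicate block, 38 with the block and the length trend removed, and 0 by limma with either pseudocount (837 and 829 at an unadjusted p below 0.05). The members' median between the materials was 0.0108 with the length trend removed and 0.00708 with the block added. Limma on FPKM called 1159 (pseudocount 1) and 1164 (pseudocount 0.1) genes in PVDF@PDA and 1645 and 1635 in PCL@PDA. The causes were not tested. DESeq2 called 4 and 6 members in the comparisons with Control. Each group held 2 libraries, which limits the precision of every difference.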
